A study of Mus musculus with 24 samples.

Results

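Dbp, Tef, Hlf, Per1, Per2, Per3, Cry2, Ciart, Bhlhe40 and Bhlhe41 are output genes of the circadian clock whose transcription is driven through short DNA elements called E-boxes and D-boxes. They are 10 of the 19938 genes that had a probe set with 1 gene symbol in the array annotation. The probe set of each gene was chosen by its mean level over all 24 arrays, the highest being taken, and only Ciart had more than 1 such probe set to choose from. The mean level over 24 arrays ranged from 4.24 for Bhlhe41 to 8.07 for Bhlhe40 on the log2 scale of the array signal. Bhlhe41 was dim, with 21% of all probe sets dimmer, while the other members lay above the median of 5.61 (52.5% of probe sets were dimmer than Ciart and 85.6% dimmer than Bhlhe40).

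The RNA came from livers of 24 male mice on the C57Bl6 background, all 24 weeks of age, fed regular chow and killed at 7 a.m., with 1 Affymetrix Mouse Gene 1.0 ST array per mouse. The paper calls them litter mates of each genotype and does not say whether litters were shared between genotypes. The C57Bl6 group (8 mice) carried no transgene. The alb-SREBP-1a group (8 mice) carried the active N-terminal part of human SREBP-1a, a transcription factor of lipid synthesis, with an HA tag and behind the albumin promoter, which is active in hepatocytes. The alb-SREBP-1a∆P group (8 mice) carried the same construct without its MAPK phosphorylation sites. All mice were killed at 1 time of day, so a difference in a level and a difference in the phase of a daily rhythm cannot be told apart in these data. The arrays measured whole liver RNA, in which fewer cells of a type and less RNA per cell cannot be told apart either.

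In the liver clock, the activators BMAL1 and CLOCK bind E-boxes and switch on their own repressors, the period and cryptochrome proteins, which then shut the activators off. The same E-boxes drive Dbp, Tef and partly Hlf, the PAR bZIP factors, which bind D-boxes and pass the rhythm on to genes of detoxification, lipid and amino acid metabolism. Bhlhe40 and Bhlhe41 (DEC1 and DEC2) compete for E-boxes, and Ciart (CHRONO) represses the activators, so most members are at once targets and brakes of the clock.

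The E-box and D-box letters were looked for in RefSeq promoter windows of the members, each from 250 bases before a transcription start to 50 after it (build GRCm38.p6). Windows of 8 of the 10 members were at hand, 10 windows in all. The search covered both strands for the E-box CACGTG, the related E′-box CACGTT, and the D-box TTACGTAA or TTATGTAA. No match of 1 motif overlapped another in these windows. The E-box was found in windows of 4 of the 8 genes, against 8.09% of all 27025 genes with a window. By window, 5 of the 10 held it, against 7.15% of all 32851 windows. Ciart had 3 E-boxes, starting 116, 58 and 44 bases before its start site, a number that 0.0883% of all windows reached. Tef had 1 E-box before each of its 2 starts (127 and 138 bases upstream), Bhlhe41 had 1 (153 bases upstream) and Per1 had 1 at the first of its 2 starts (166 bases upstream). Per3 held no E-box but 2 D-boxes, 205 and 158 bases upstream. The D-box was in 1.06% of all windows and 2 or more of them in 0.0244%. Cry2 had an E′-box 166 bases upstream, which 4.68% of all windows had, and the windows of Dbp and Hlf held none of these letters. The sequences below are the 250 bases upstream of the start for the members with an E-box or a D-box, 5′ to 3′ on the strand of the gene, shown because they place these elements beside the genes whose levels follow. Capitals mark the E-boxes or, in Per3, the D-boxes.
Ciart, chr3:95882229-95882478, minus strand: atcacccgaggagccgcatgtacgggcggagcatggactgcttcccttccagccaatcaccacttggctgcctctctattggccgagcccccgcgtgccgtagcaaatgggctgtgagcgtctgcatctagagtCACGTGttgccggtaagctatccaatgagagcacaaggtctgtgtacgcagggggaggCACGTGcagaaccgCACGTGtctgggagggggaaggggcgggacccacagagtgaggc
Bhlhe41, chr6:145865421-145865670, minus strand: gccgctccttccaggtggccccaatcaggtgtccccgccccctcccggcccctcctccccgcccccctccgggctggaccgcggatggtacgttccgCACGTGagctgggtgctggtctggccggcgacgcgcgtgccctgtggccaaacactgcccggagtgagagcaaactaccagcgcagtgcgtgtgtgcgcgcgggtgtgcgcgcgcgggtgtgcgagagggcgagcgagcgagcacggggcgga
Tef, the first start, chr15:81802423-81802672, plus strand: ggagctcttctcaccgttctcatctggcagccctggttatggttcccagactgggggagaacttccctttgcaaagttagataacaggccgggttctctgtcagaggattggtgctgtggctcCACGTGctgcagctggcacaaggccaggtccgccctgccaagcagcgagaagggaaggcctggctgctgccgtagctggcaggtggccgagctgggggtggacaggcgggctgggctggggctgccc
Tef, the second start, chr15:81811164-81811413, plus strand: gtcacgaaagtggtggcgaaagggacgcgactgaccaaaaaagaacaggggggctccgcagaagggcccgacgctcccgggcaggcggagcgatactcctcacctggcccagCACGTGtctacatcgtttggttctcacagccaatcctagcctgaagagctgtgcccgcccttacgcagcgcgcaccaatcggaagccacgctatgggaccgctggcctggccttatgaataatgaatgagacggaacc
Per1, the first start, chr11:69098699-69098948, plus strand: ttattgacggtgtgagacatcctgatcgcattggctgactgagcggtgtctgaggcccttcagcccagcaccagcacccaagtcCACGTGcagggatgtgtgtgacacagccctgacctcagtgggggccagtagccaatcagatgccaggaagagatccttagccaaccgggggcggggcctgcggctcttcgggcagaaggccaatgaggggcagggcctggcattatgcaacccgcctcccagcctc
Per3, chr4:151044666-151044915, minus strand: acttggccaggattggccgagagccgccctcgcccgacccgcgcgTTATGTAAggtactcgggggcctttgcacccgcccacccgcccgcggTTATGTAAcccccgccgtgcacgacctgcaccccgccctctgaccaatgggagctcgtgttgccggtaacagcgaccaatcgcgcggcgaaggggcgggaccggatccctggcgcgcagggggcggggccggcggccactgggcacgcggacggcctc

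**Figure D1:**
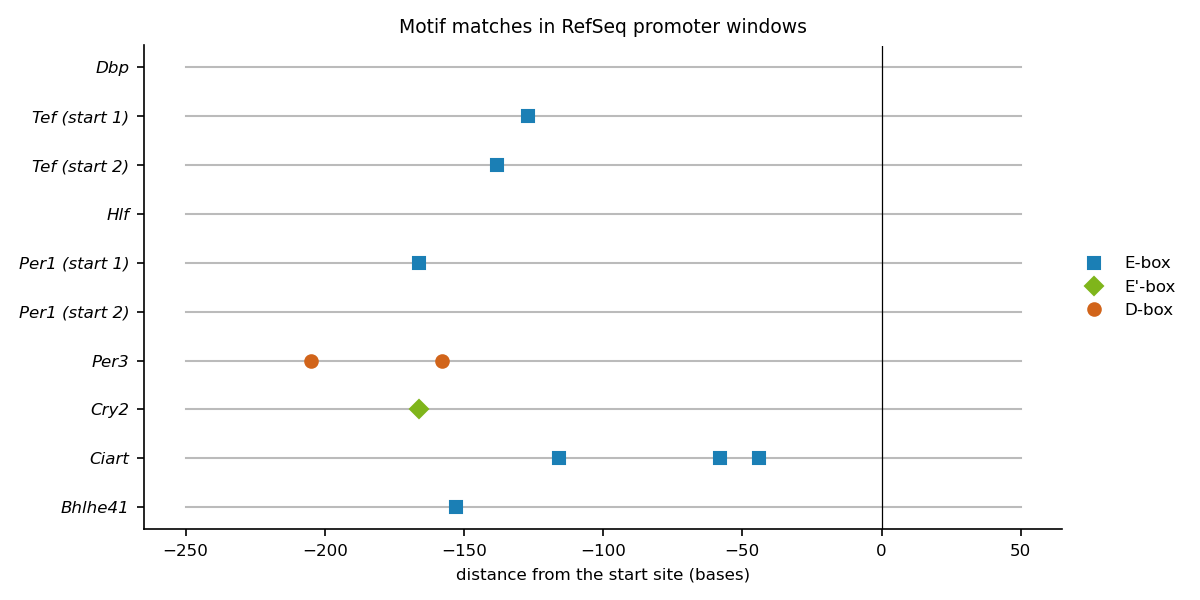
Motif matches in the promoter windows of 8 members, with the distance from the start site in bases on the x axis and 1 line per window. Squares are E-boxes, the diamond is the E′-box and circles are D-boxes. Ciart has 3 E-boxes within 116 bases of its start, Per3 has 2 D-boxes, and the windows of Dbp and Hlf are empty.

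The first comparison asked how the clock output genes differed in liver with the phosphorylatable factor. In alb-SREBP-1a against C57Bl6, 5 of the 10 members rose (Dbp, Tef, Hlf, Per3 and Bhlhe41), none fell and 5 did not pass the test, which is limma with Benjamini-Hochberg adjustment over all 35556 probe sets and a threshold of 0.05. Over all probe sets 6.77% were called higher and 3.98% lower in this comparison. At an unadjusted p under 0.05, 9 members were higher and 0 lower, and the methods' t-test with the same adjustment also called 5 and 0. The median log2 fold change of the members was 0.40, against 0.011 over all probe sets. For 2 members all 8 alb-SREBP-1a arrays lay above every C57Bl6 array, as did 2.03% of all probe sets.

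With the phosphosites deleted, in alb-SREBP-1a∆P against C57Bl6, 6 of the 10 members rose (Dbp, Tef, Per3, Ciart, Bhlhe40 and Bhlhe41), none fell and 4 did not pass. Many genes changed in this line, so the background was high, with 27.0% of all probe sets called higher and 20.2% lower. The unadjusted p was under 0.05 for 6 members higher and 0 lower, the same counts as from the methods' t-test after adjustment. The median log2 fold change was 0.47 for the members and 0.106 for all probe sets. For 4 members all 8 arrays lay above every C57Bl6 array, which held for 5.34% of all probe sets. Both comparisons share the same 8 C57Bl6 arrays.

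When alb-SREBP-1a∆P was set against the alb-SREBP-1a line, a difference called between the lines here, 2 members were higher (Ciart and Bhlhe41), 1 was lower (Hlf) and 7 did not pass the test. Of all probe sets 22.8% were called higher and 21.4% lower here, so the share of members called lay near or under the background. No member had all 8 arrays above those of alb-SREBP-1a, against 1.88% of all probe sets. The scaling of the arrays bears on both comparisons with alb-SREBP-1a∆P. Quantile normalization, centring on the array median and cyclic loess moved the overall median log2 fold change by −0.14, −0.16 and −0.11 for alb-SREBP-1a∆P against the controls, and by −0.10, −0.17 and −0.085 between the lines.

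**Figure D2:**
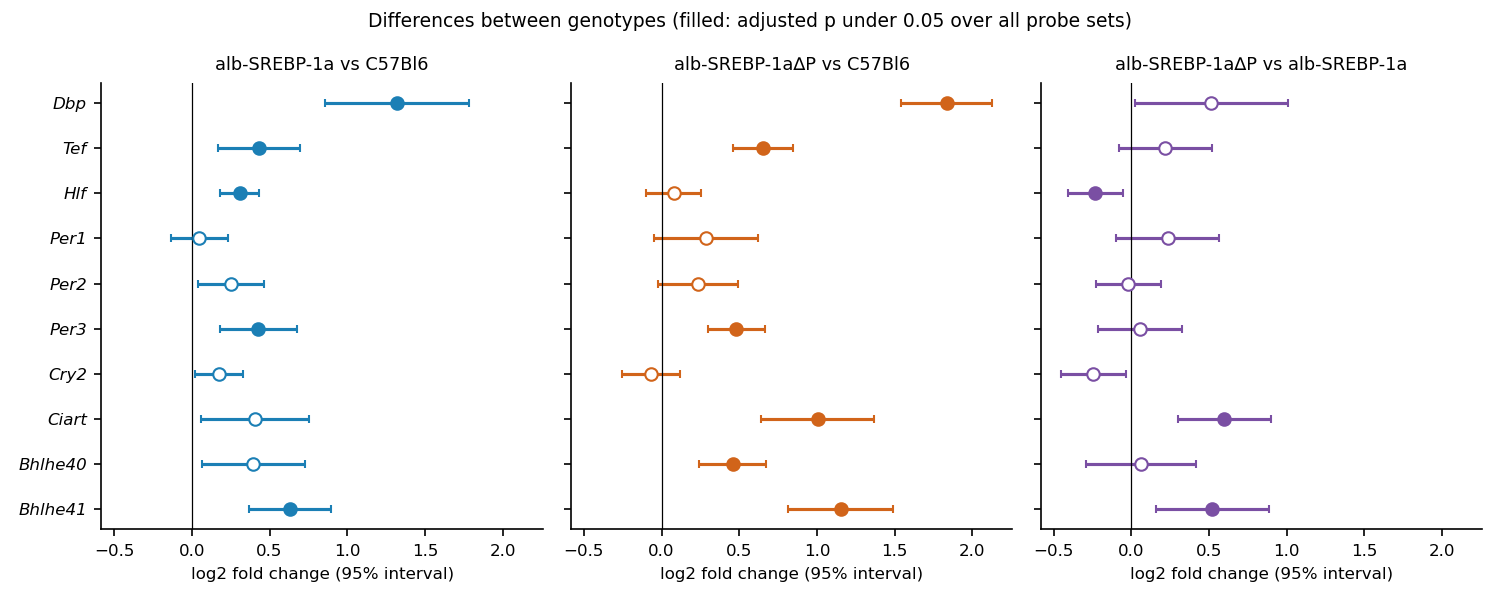
Log2 fold change of the 10 members (x axis, log2 units, with the 95% interval) in the 3 comparisons, 1 gene per line, filled where the adjusted p over all probe sets is under 0.05. Dbp has the highest value in both comparisons with C57Bl6, at 1.32 and 1.84, and Hlf is filled on opposite sides of 0 in the first and the third panel.

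Dbp encodes the PAR bZIP factor that gives the D-box pathway its name as D-site binding protein. Its log2 level ran from 6.27 over a median of 6.59 to 6.88 in C57Bl6, from 6.82 over 7.85 to 8.67 in alb-SREBP-1a, and from 7.72 over 8.44 to 8.78 in alb-SREBP-1a∆P. All alb-SREBP-1a∆P mice lay above C57Bl6, whereas 1 of the 8 alb-SREBP-1a mice, replicate 3, fell inside the C57Bl6 range. Dbp rose by 1.32 ± 0.22 (log2 fold change ± SE, 2.50-fold, limma adjusted p = 8.19e-04) in alb-SREBP-1a and by 1.84 ± 0.14 (3.57-fold, limma adjusted p = 5.47e-08) in alb-SREBP-1a∆P. The difference between the lines was 0.52 ± 0.23, with a 95% interval from 0.02 to 1.01, and did not pass (limma adjusted p = 0.0813). That call depended on the processing, since the adjusted p was 0.0342 after quantile normalization (0.72), 0.0207 after cyclic loess (0.79) and 0.0411 with all 24 arrays in 1 fit.

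The spread of Dbp was wider in alb-SREBP-1a, with an SD of 0.63, than in the controls (0.24) or in alb-SREBP-1a∆P (0.33), a difference that was not tested. Replicates 1 and 2 stood highest at 8.67 and 8.62, and replicates 3 and 4 lowest at 6.82 and 7.30. Without replicates 1 and 2 the rise over C57Bl6 was 1.07 (limma adjusted p = 0.00191) and the difference between the lines 0.77 (limma adjusted p = 0.0108). Because these mice stood highest, leaving them out could only lower the rise and widen the difference. Replicates 3 and 4, the lowest, were not left out in any setting.

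Tef encodes thyrotroph embryonic factor, a PAR bZIP paralogue of Dbp. Its log2 level ran from 7.13 over a median of 7.24 to 7.46 in C57Bl6, from 7.13 over 7.72 to 8.18 in alb-SREBP-1a and from 7.61 over 7.88 to 8.31 in alb-SREBP-1a∆P. The alb-SREBP-1a mice overlapped the controls through the same replicates 3 and 4 that were lowest for Dbp, at 7.13 and 7.29, and the alb-SREBP-1a∆P mice did not overlap them. Tef rose by 0.65 ± 0.09 (1.57-fold, limma adjusted p = 2.81e-05) in alb-SREBP-1a∆P. In alb-SREBP-1a it rose by 0.43 ± 0.13 (1.35-fold, limma adjusted p = 0.0337), a call that ended after quantile normalization (adjusted p = 0.0603) and without replicates 1 and 2 (0.29, adjusted p = 0.101). Between the lines it differed by 0.22 ± 0.14 (95% interval −0.08 to 0.52, limma adjusted p = 0.211), and it passed after quantile normalization (0.42) and cyclic loess (0.49) and without replicates 1 and 2 of alb-SREBP-1a (0.37). Replicates 1 and 2 were the highest alb-SREBP-1a mice for Tef too, at 8.18 and 8.06, so leaving them out could only move its values this way.

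Hlf, the hepatic leukemia factor and the remaining PAR bZIP gene, differed from the others in its order of levels. Its log2 level ran from 7.39 over a median of 7.57 to 7.70 in C57Bl6, from 7.78 over 7.85 to 8.02 in alb-SREBP-1a and from 7.34 over 7.68 to 7.93 in alb-SREBP-1a∆P. Every alb-SREBP-1a mouse was above every control, including replicates 3 and 4, and the alb-SREBP-1a∆P mice spread across both other groups. Hlf rose by 0.31 ± 0.06 (1.24-fold, limma adjusted p = 0.00294) in alb-SREBP-1a. Its value was 0.08 ± 0.09 in alb-SREBP-1a∆P (95% interval −0.10 to 0.26, limma adjusted p = 0.474), and between the lines Hlf was lower by 0.23 ± 0.08 (limma adjusted p = 0.0341). These last values moved with the scaling. Against C57Bl6 the change passed at 0.23 after quantile normalization and 0.33 after cyclic loess but was −0.08 with each array centred on its median. Between the lines it was −0.03 after quantile normalization (adjusted p = 0.815), 0.05 after cyclic loess (adjusted p = 0.704) and −0.19 without replicates 1 and 2 of alb-SREBP-1a (adjusted p = 0.106).

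**Figure D3:**
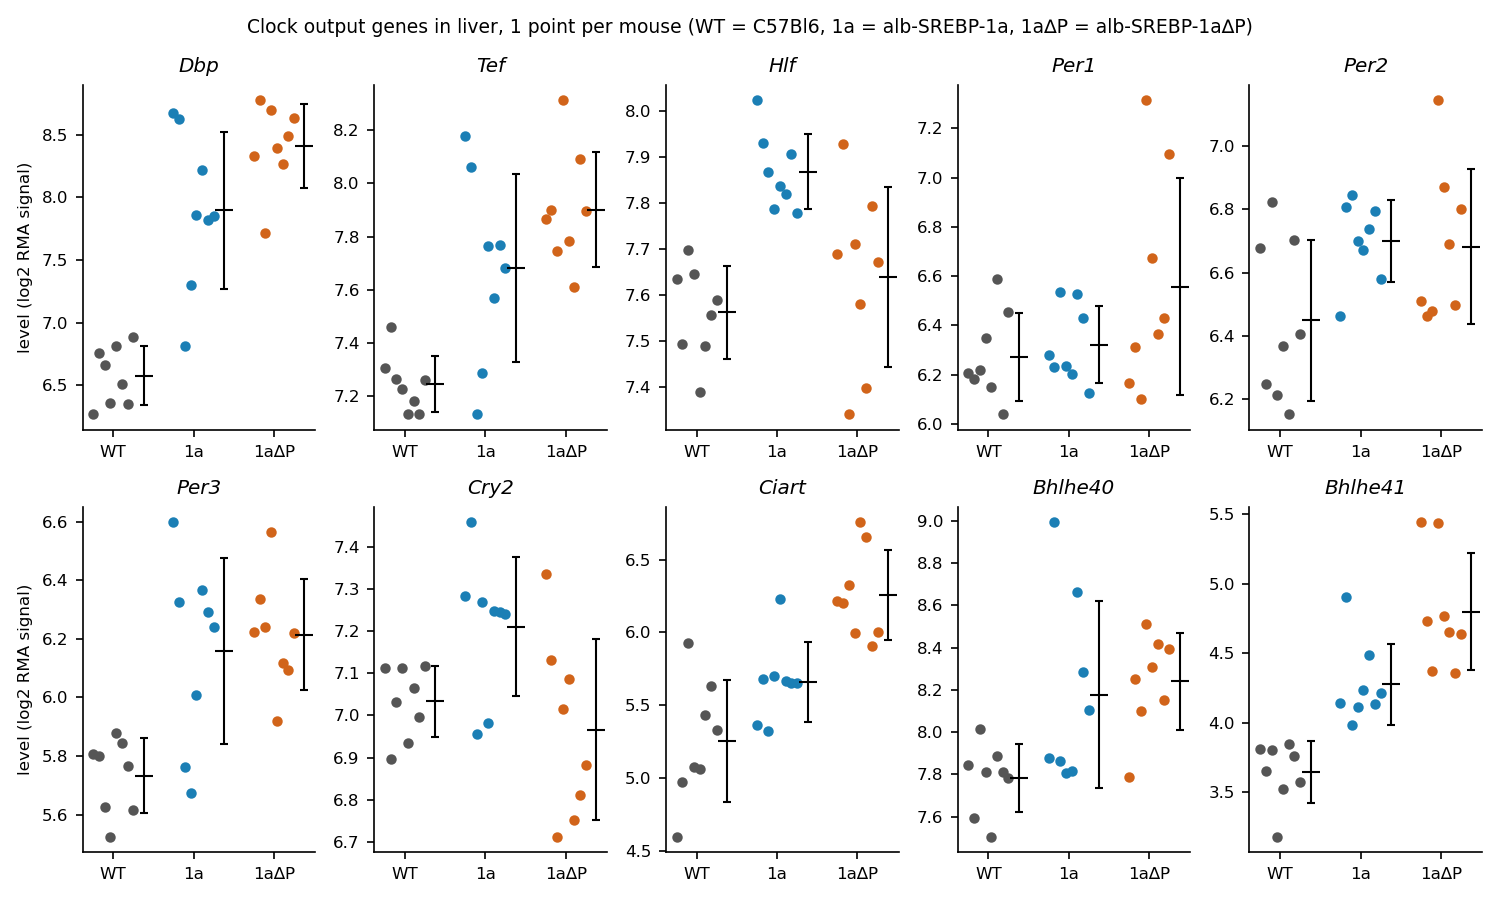
Level of each of the 10 members (y axis, log2 RMA signal, scaled per panel) in every mouse, with mean and SD beside the points. WT is C57Bl6, 1a is alb-SREBP-1a and 1a∆P is alb-SREBP-1a∆P, with 8 mice each in order of replicate number. Dbp, Tef, Per3 and Bhlhe41 of all 8 alb-SREBP-1a∆P mice sit above all controls, while alb-SREBP-1a replicates 3 and 4 sit low for Dbp, Tef and Per3.

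Of the period and cryptochrome repressors Per3 was the only one of the 4 that passed at the settings used throughout, and it did so in both comparisons with C57Bl6. Per3, the period gene thought to be dispensable for the core oscillator, had log2 levels from 5.52 over a median of 5.78 to 5.88 in C57Bl6, from 5.67 over 6.27 to 6.60 in alb-SREBP-1a and from 5.92 over 6.22 to 6.57 in alb-SREBP-1a∆P. The alb-SREBP-1a mice again overlapped the controls through replicates 3 and 4 (5.76 and 5.67). Per3 rose by 0.43 ± 0.12 (1.34-fold, limma adjusted p = 0.0265) in alb-SREBP-1a, where the call ended without replicates 1 and 2 (0.33, adjusted p = 0.0889). It rose by 0.48 ± 0.09 (1.40-fold, limma adjusted p = 3.26e-04) in alb-SREBP-1a∆P, and the lines differed by 0.06 ± 0.13 (95% interval −0.21 to 0.32).

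Per1 and Per2 encode the period proteins that carry most of the repression with the cryptochromes. The log2 level of Per1 ran from 6.04 over a median of 6.21 to 6.59 in C57Bl6, from 6.13 over 6.26 to 6.54 in alb-SREBP-1a and from 6.10 over 6.40 to 7.31 in alb-SREBP-1a∆P. Its groups overlapped, and 3 alb-SREBP-1a∆P mice stood above every other mouse, namely replicates 4 (7.31), 8 (7.10) and 5 (6.67). Per1 differed from C57Bl6 by 0.05 ± 0.09 in alb-SREBP-1a (95% interval −0.14 to 0.23, limma adjusted p = 0.789) and by 0.28 ± 0.16 in alb-SREBP-1a∆P (−0.05 to 0.62, limma adjusted p = 0.148). The latter was 0.18 without alb-SREBP-1a∆P replicate 4, the array that correlated least with its own group.

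For Per2 the level ran from 6.15 over a median of 6.39 to 6.82 in C57Bl6, from 6.46 over 6.72 to 6.84 in alb-SREBP-1a and from 6.46 over 6.60 to 7.14 in alb-SREBP-1a∆P, again highest in alb-SREBP-1a∆P replicate 4. It differed from C57Bl6 by 0.25 ± 0.10 (95% interval 0.04 to 0.46, limma adjusted p = 0.127) and 0.23 ± 0.12 (−0.02 to 0.49, limma adjusted p = 0.125), and the lines differed by −0.02 ± 0.10. After cyclic loess Per2 passed in alb-SREBP-1a∆P against C57Bl6 (0.35, adjusted p = 0.0322).

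Cry2, a cryptochrome that binds BMAL1 and CLOCK as a repressor, had log2 levels from 6.90 over a median of 7.05 to 7.12 in C57Bl6, from 6.96 over 7.25 to 7.46 in alb-SREBP-1a and from 6.71 over 6.95 to 7.34 in alb-SREBP-1a∆P. Of the alb-SREBP-1a mice 6 stood above all controls, and the alb-SREBP-1a∆P mice lay on either side of them. The difference from C57Bl6 was 0.18 ± 0.07 (limma adjusted p = 0.142) in alb-SREBP-1a and −0.07 ± 0.09 (limma adjusted p = 0.543) in alb-SREBP-1a∆P, where its sign turned under quantile normalization and cyclic loess. Between the lines it was −0.24 ± 0.10 (limma adjusted p = 0.0546), with an adjusted p of 0.0226 when all 24 arrays were fitted together and 0.00599 with each array centred on its median.

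The remaining E-box repressors rose in alb-SREBP-1a∆P, 3 of 3, and 1 of 3 rose in alb-SREBP-1a. Ciart had log2 levels from 4.60 over a median of 5.20 to 5.93 in C57Bl6, from 5.32 over 5.66 to 6.23 in alb-SREBP-1a and from 5.91 over 6.21 to 6.76 in alb-SREBP-1a∆P. The groups overlapped stepwise, and 7 alb-SREBP-1a∆P mice lay above all controls. In alb-SREBP-1a∆P Ciart rose by 1.01 ± 0.17 over C57Bl6 (2.01-fold, limma adjusted p = 1.95e-04) and by 0.60 ± 0.14 over alb-SREBP-1a (1.52-fold, limma adjusted p = 0.00341). Its change in alb-SREBP-1a, 0.41 ± 0.17, did not pass (95% interval 0.06 to 0.75, limma adjusted p = 0.134).

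The difference of Ciart between the lines passed in all 10 alternative settings too, from 0.43 to 0.78, which held for no other member. The dimmer probe set of Ciart moved in the same directions. Against C57Bl6 it was at 0.51 ± 0.21 in alb-SREBP-1a (limma adjusted p = 0.130) and 1.47 ± 0.14 in alb-SREBP-1a∆P (limma adjusted p = 1.02e-06). Between the lines it was at 0.96 ± 0.21 (limma adjusted p = 0.00243). On it all 8 alb-SREBP-1a∆P mice lay above all controls.

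Bhlhe41 had log2 levels from 3.18 over a median of 3.71 to 3.84 in C57Bl6, from 3.99 over 4.18 to 4.90 in alb-SREBP-1a and from 4.36 over 4.69 to 5.44 in alb-SREBP-1a∆P. Neither transgenic group overlapped the controls. Bhlhe41 rose by 0.63 ± 0.12 (1.55-fold, limma adjusted p = 0.00306) and 1.15 ± 0.16 (2.22-fold, limma adjusted p = 2.68e-05) over C57Bl6. Between the lines it was higher in alb-SREBP-1a∆P by 0.52 ± 0.17 (limma adjusted p = 0.0216). That call ended under quantile normalization (0.28), median centring (0.36) and cyclic loess (0.23), and the probe set is too dim to enter the fit without dim probe sets.

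Bhlhe40 had log2 levels from 7.51 over a median of 7.81 to 8.01 in C57Bl6, from 7.81 over 7.99 to 8.99 in alb-SREBP-1a and from 7.79 over 8.28 to 8.51 in alb-SREBP-1a∆P. Of the alb-SREBP-1a mice 4 lay inside the control range and 4 above it, up to 8.99 in replicate 2. Bhlhe40 rose by 0.46 ± 0.10 (1.37-fold, limma adjusted p = 0.00163) in alb-SREBP-1a∆P, while the 0.39 ± 0.16 in alb-SREBP-1a did not pass (95% interval 0.06 to 0.73, limma adjusted p = 0.123). The lines differed by 0.06 ± 0.17.

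How the members varied from mouse to mouse was compared within 1 genotype at a time, since the genotypes form separate groups. All 45 pairs of members in the 3 genotypes gave 135 correlations of 8 mice, each with an exact two-sided permutation test. None passed after Benjamini-Hochberg adjustment over the 135, by Pearson's r or by Spearman's rho, and 12 had an unadjusted exact p under 0.05 by Pearson's r (2 among the controls, 4 among the alb-SREBP-1a mice and 6 among the alb-SREBP-1a∆P mice). The median r was 0.0357 among the controls, 0.224 among the alb-SREBP-1a mice and 0.297 among the alb-SREBP-1a∆P mice, with 23, 30 and 33 of the 45 pairs above 0.

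The highest r of the 135 was that of Dbp and Tef in alb-SREBP-1a, 0.928 (exact permutation p = 0.00221, adjusted p = 0.168), with a rho of 0.786 (exact p = 0.0279, adjusted p = 0.414) and an r of 0.816 without the 2 mice farthest from the median of Dbp. Dbp and Per3 in the same mice had an r of 0.887 (exact permutation p = 0.00394, adjusted p = 0.168), a rho of 0.857 (exact p = 0.0107) and an r of 0.799 without the 2 farthest mice. These are the genes for which alb-SREBP-1a replicates 3 and 4 stood near the controls. In C57Bl6 the same pairs had r values of 0.192 (exact permutation p = 0.680) and 0.0418 (exact permutation p = 0.920).

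In alb-SREBP-1a∆P Dbp and Hlf had an r of 0.845 (exact permutation p = 0.00499, adjusted p = 0.168), a rho of 0.833 (exact p = 0.0154) and an r of 0.617 without the 2 farthest mice. Per1 and Per2 there had an r of 0.895 (exact permutation p = 0.00342, adjusted p = 0.168), a rho of 0.810 (exact p = 0.0218) and an r of 0.795 without them. Tef and the brighter probe set of Ciart ran in opposite directions, with an r of −0.756 (exact permutation p = 0.0287, adjusted p = 0.452) and a rho of −0.881 (exact p = 0.00724). The dimmer probe set of Ciart was not used for these r values, so the opposite course is stated for the brighter one only. On the dimmer one alb-SREBP-1a∆P replicate 4, which had the highest Tef (8.31), also stood highest (6.60). In alb-SREBP-1a the r of Bhlhe40 and Bhlhe41, 0.898 (exact permutation p = 0.00739, adjusted p = 0.200, rho 0.643, exact p = 0.0962), fell to 0.164 without the 2 farthest mice and so rested on them.

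**Figure D4:**
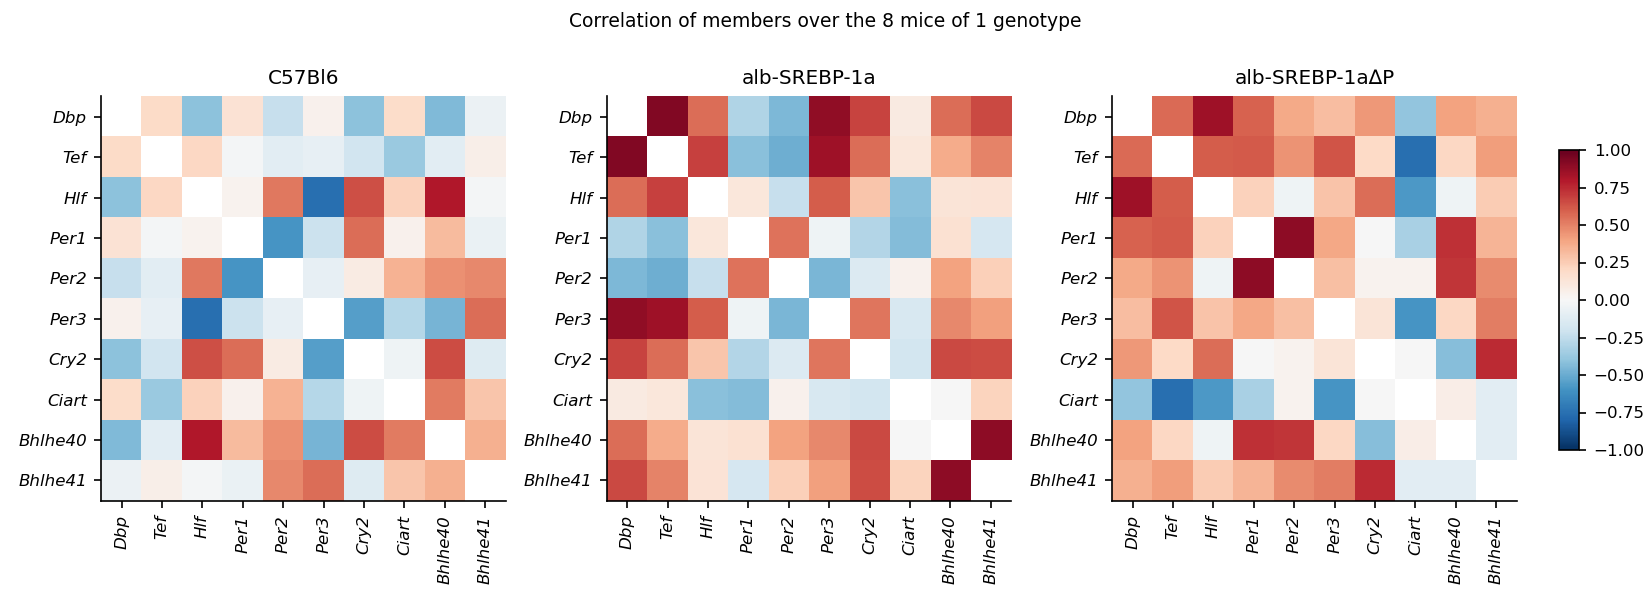
Pearson's r (colour, from −1 to 1) of every pair of the 10 members over the 8 mice of each genotype, with the diagonal left blank. Dbp, Tef and Per3 form a red block in alb-SREBP-1a (0.928, 0.887 and 0.848), and no pair passed after adjustment over all 135.

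The genes whose pattern was most like that of Dbp were ranked over 24 arrays by Pearson's r after subtracting each genotype's mean, as a description without a test. Outside the members the leading 5 were Pex11g (0.82), a peroxisomal membrane protein, Zfp385b (0.77), the nuclear receptor repressor Nr1d2 (0.75), the mitochondrial carrier Slc25a47 (0.75) and Noct (0.74), the rhythmic enzyme nocturnin. Among the members Tef had an r of 0.785, with Pex11g the 1 gene above it, and Per3 had 0.674. Cry2 (0.439), Bhlhe40 (0.43), Hlf (0.422) and Bhlhe41 (0.401) followed, while Per1 (0.17), Ciart (−0.0171) and Per2 (−0.0679) were close to 0. Within 1 genotype at a time, the r of Pex11g was 0.179 among the controls, 0.951 among the alb-SREBP-1a mice and 0.841 among the alb-SREBP-1a∆P mice. In the same order it was 0.171, 0.959 and 0.788 for Zfp385b and 0.362, 0.953 and 0.587 for Nr1d2. Slc25a47 had 0.0765, 0.979 and 0.426, and Noct had 0.539, 0.876 and 0.691. Each of these 5 genes had its highest r among the alb-SREBP-1a mice, whose Dbp levels spread most.

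**Figure D5:**
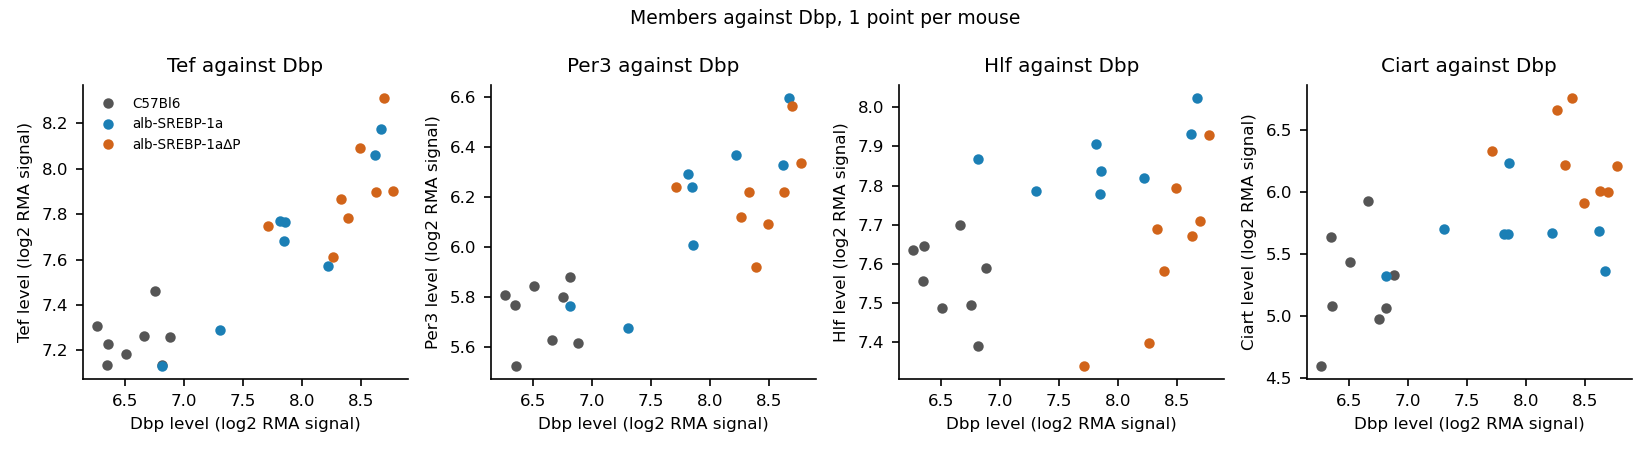
Levels of Tef, Per3, Hlf and Ciart (y axes, log2 RMA signal) against Dbp (x axis, log2 RMA signal), 1 point per mouse, coloured by genotype. Within alb-SREBP-1a Tef and Per3 run with Dbp (r of 0.928 and 0.887), and its mice with the lowest Dbp, at 6.82 and 7.30, lie beside the C57Bl6 points in those panels but above them for Hlf.

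Partners of the members in the core clock were read from a list of 14, of which 11 were analysed here. In alb-SREBP-1a 2 rose and 4 fell, in alb-SREBP-1a∆P 2 rose and 7 fell, and between the lines 1 was higher and 5 were lower. Their median log2 fold changes were −0.145, −0.349 and −0.204. Of all probe sets 6.77% were called higher and 3.98% lower in alb-SREBP-1a, and 27.0% and 20.2% in alb-SREBP-1a∆P. Between the lines these shares were 22.8% and 21.4%. Nr1d1 and Nr1d2, the REV-ERB repressors and themselves E-box targets, rose in both lines in all 8 mice, Nr1d1 by 3.20 ± 0.12 and 3.50 ± 0.10 and Nr1d2 by 1.31 ± 0.14 and 1.34 ± 0.12. Between the lines Nr1d1 differed by 0.30 ± 0.10 (limma adjusted p = 0.0221), which with each array centred on its median was 0.13 and no longer passed (adjusted p = 0.263). Nr1d2 differed by 0.03 ± 0.15 (95% interval −0.28 to 0.34).

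Arntl, which encodes BMAL1, was lower between the lines by 0.67 ± 0.16 (limma adjusted p = 0.00342) and Clock, its partner subunit, by 0.36 ± 0.10 (limma adjusted p = 0.0110). The call of Clock ended after quantile normalization (−0.15, adjusted p = 0.276) and cyclic loess (−0.0797, adjusted p = 0.594). Against C57Bl6, Clock fell by 0.65 ± 0.08 in alb-SREBP-1a∆P, and its −0.29 ± 0.10 in alb-SREBP-1a did not pass (limma adjusted p = 0.0579), though it did in 5 of the 9 other settings (lowest adjusted p = 0.0254). Nfil3, which encodes the repressor of D-boxes that opposes Dbp, fell by 0.60 ± 0.08 and 1.27 ± 0.14 against C57Bl6, without overlap with the controls. Between the lines Nfil3 was lower by 0.67 ± 0.15 (limma adjusted p = 0.00209), a call that ended after cyclic loess (−0.40, adjusted p = 0.0546). Cry1, the other cryptochrome, also fell in both lines against C57Bl6, by 1.13 ± 0.13 and 1.40 ± 0.12, again without overlap. Between the lines Cry1 differed by −0.27 ± 0.12 and did not pass, though it did after quantile normalization (−0.38), with median centring (−0.44) and without replicates 1 and 2 of alb-SREBP-1a (−0.33). The ROR activator Rora fell by 0.46 ± 0.10 and 0.66 ± 0.11 against C57Bl6. Of the factors that modify or degrade the period and cryptochrome proteins, Btrc fell by 0.35 ± 0.10 and Csnk1e by 0.25 ± 0.07 in alb-SREBP-1a∆P, calls that ended under quantile normalization and cyclic loess, while Csnk1d (−0.17 ± 0.11) did not pass. Timeless differed by 0.01 ± 0.08 there. Between the lines Btrc was lower by 0.51 ± 0.09 (limma adjusted p = 6.85e-04), with no overlap of their mice. It passed there in 9 of the 10 other settings (highest adjusted p = 0.055).

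Genes listed as E-box or D-box targets in liver passed in both directions. Of 15 listed targets 12 were analysed here, and 2 rose and 3 fell in alb-SREBP-1a, 1 rose and 6 fell in alb-SREBP-1a∆P, and 1 was higher and 3 were lower between the lines. Their median log2 fold changes were −0.0926, −0.463 and −0.43. The shares of all probe sets called higher and lower were 6.77% and 3.98%, 27.0% and 20.2%, and 22.8% and 21.4% in the same order. Rgs16, which dampens G-protein signals, rose by 1.47 ± 0.17 and 1.06 ± 0.16 over C57Bl6, with all 8 mice of each line above the controls. Lonrf3 fell by 1.24 ± 0.20 and 1.55 ± 0.18, and Insig2, a regulator of SREBP processing, by 0.65 ± 0.17 and 1.17 ± 0.11. The paper relates the transcription of Insig2 to NR1D1, so its change cannot be read as that of an E-box or D-box target alone. The paper describes Insig2 as lowered in alb-SREBP-1a and not lowered in alb-SREBP-1a∆P, whereas here it fell in both lines. The call of Insig2 in alb-SREBP-1a ended without replicates 1 and 2 (−0.44, adjusted p = 0.0577). Cyp7a1, the rate-limiting enzyme of bile acid synthesis, fell by 1.06 ± 0.15 in alb-SREBP-1a∆P. The paper relates Cyp7a1 to NR1D1 as well, so the same limit holds for it. Usp2, a deubiquitinase, fell by 0.48 ± 0.13 in alb-SREBP-1a and was higher between the lines by 0.42 ± 0.15 (limma adjusted p = 0.0282), a call that ended with median centring (0.25, adjusted p = 0.187). The constitutive androstane receptor gene Nr1i3, a PAR bZIP target, was lower between the lines by 0.59 ± 0.11, with no overlap of their mice. The NAD salvage enzyme gene Nampt was lower between the lines by 0.45 ± 0.14, a call that ended after quantile normalization (−0.25) and cyclic loess (−0.16).

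Per1, Per2 and other clock genes also respond to glucocorticoids and to acute stimuli, so such genes were counted beside them. Of 8 glucocorticoid-responsive genes none rose in any comparison (limma), and 2 fell in alb-SREBP-1a, 4 fell in alb-SREBP-1a∆P and 2 were lower between the lines. At an unadjusted p under 0.05, 1 of them was higher in alb-SREBP-1a and 0 in the other comparisons, and the methods' t-test with the same adjustment called 0 higher. Of 8 immediate early genes none passed in alb-SREBP-1a (limma, 1 higher at an unadjusted p under 0.05, and 0 by the methods' t-test), 1 fell in alb-SREBP-1a∆P, and 1 was higher and 1 lower between the lines. Over all probe sets 6.77% were called higher and 3.98% lower in alb-SREBP-1a (limma), and 27.0% and 20.2% in alb-SREBP-1a∆P. Between the lines the shares were 22.8% and 21.4%. The part of both lists in the levels of the period genes was not tested.

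Arrays of the 24 mice correlated with each other at 0.917 to 0.99. The mean log2 level of 5 measured hepatocyte markers of 6 ranged from 13.52 to 13.74 in C57Bl6, from 13.25 to 13.49 in alb-SREBP-1a and from 13.19 to 13.32 in alb-SREBP-1a∆P. That of 5 measured lymphocyte markers of 6 ranged from 5.19 to 5.29, from 5.29 to 5.89 and from 5.27 to 5.68, and that of 6 Kupffer cell markers from 7.54 to 8.06, from 7.72 to 8.51 and from 7.70 to 8.41. The ranges of the endothelial, stellate, cholangiocyte and erythroid lists overlapped between the genotypes. Of the hepatocyte markers 2 fell in alb-SREBP-1a, Tat (−0.75 ± 0.10) and Cps1 (−0.29 ± 0.07). Tat is also on the glucocorticoid-responsive list. Alb, Apob and Ttr did not pass there. In alb-SREBP-1a∆P all 5 fell, with log2 fold changes from −0.774 to −0.155. Of all probe sets 3.98% and 20.2% were called lower in these 2 comparisons. The part of these marker levels in the members' changes was not tested.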

How the data were processed

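From each of 24 livers, 8 per genotype, 150 ng of RNA was hybridised to 1 Mouse Gene 1.0 ST array (Affymetrix). The log2 signals deposited by the authors were made with RMA in Expression Console. Other settings of that step were not given in the sources used here. They cover 35556 probe sets, of which 21789 carry 1 symbol, 1621 several and 12146 none in the array annotation. The build of that annotation is not named, so gene coordinates are given only for RefSeq promoter windows (GRCm38.p6).

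Each comparison was fitted as 8 against 8 arrays with limma 3.58.1 in R 4.3.3 (moderated variances, Benjamini-Hochberg over all probe sets), after a check on simulated data. Errors are standard errors of the fit, and SDs are over 8 mice. A p-value reflects only how far the mice in its own test scatter, 8 against 8 in a comparison and 8 of 1 genotype in a correlation. The number of arrays limits the precision. Correlations and figures were made in Python 3.11.15 with numpy 2.4.6, scipy 1.17.1 and matplotlib 3.10.9. The members and lists were chosen with earlier results of these data known. Genes named are all 10 members, the core clock partners, up to 4 liver targets per comparison with the smallest p, and the 5 genes most like Dbp. The other lists are glucocorticoid-responsive, immediate early and cell type marker genes, given by counts or levels. A few genes of these lists were not analysed here. The alternatives were quantile normalization, median centring, cyclic loess, no dim probe sets (mean level under the median), all 24 arrays in 1 fit, a replicate block, averaging of a gene's probe sets, the methods' t-test and 2 settings that leave out arrays.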

Additional observations from a re-analysis of the deposited data

Results flagged for a closer look

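In 33 groups of 8 arrays (the probe set of each member, and the dimmer probe set of Ciart, in each genotype) 1 array stood apart by Dixon's ratio of gap to range, where chance would flag about 1 group in 20. It was alb-SREBP-1a replicate 5 for Ciart, at a log2 level of 6.23 against 5.70 for the next array (ratio 0.583).

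For 3 members the effect against C57Bl6 differed between the transgenic lines by the limma test between them. The difference was 0.60 for Ciart (0.96 on its dimmer probe set), 0.52 for Bhlhe41 and −0.23 for Hlf on the log2 scale. That of Hlf and that of Bhlhe41 depended on the scaling of the arrays, and that of Ciart did not change its call in any setting tried.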

How the results depend on the processing

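The number of members higher in alb-SREBP-1a against C57Bl6 was 3 to 5 and that in alb-SREBP-1a∆P against C57Bl6 5 to 8 over all settings, with 0 lower throughout. The 5 became 3 without alb-SREBP-1a replicates 1 and 2, where Tef and Per3 no longer passed. Those replicates were the highest alb-SREBP-1a mice for Dbp, Tef and Hlf, so that setting could only lower those rises. Between the lines the 2 higher members became 1 with each array centred on its median, 1 without dim probe sets and 4 when replicates 1 and 2 of alb-SREBP-1a were left out, while the 1 lower became 0 after quantile normalization, cyclic loess, the replicate block and leaving out those replicates, and 2 with median centring, without dim probe sets and with all 24 arrays in 1 fit. No clear pairing of the mice by replicate number was seen: the deviations of same-numbered arrays correlated at −0.116 to 0.279, and at most 2 of 8 pairs exceeded 0.1. The same-numbered array was the best partner for 2, 3 and 2 of 8 arrays in the 3 comparisons, and these values cannot exclude a pairing. With the replicate block 5, 6 and 3 members were higher, Dbp passed between the lines (adjusted p = 0.0397) and Hlf (0.0538), Nr1d1 (0.0550) and Usp2 (0.0907) did not. The methods' t-test, Benjamini-Hochberg adjusted, called 5, 6 and 2 members higher, and at the methods' threshold (an unadjusted p under 0.05 and a 1.5-fold change) it called 2, 4 and 1 higher and 0 lower. The count of correlated pairs was also 0 in each of the 5 settings in which it was recomputed (quantile normalization, median centring, cyclic loess, averaging of probe sets, and leaving out the 2 mice farthest from the median).

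Signs turned mostly for values that had not passed. After quantile normalization Csnk1d was at −0.00257 in alb-SREBP-1a, Cry2 at 0.029, Csnk1d at 0.0135 and Timeless at −0.12 in alb-SREBP-1a∆P, and between the lines Per2 was at 0.065, Rora at 0.00424, Csnk1d at 0.0161, Csnk1e at 0.0189 and Timeless at −0.0474. With median centring Hlf was at −0.084 and Timeless at −0.15 in alb-SREBP-1a∆P, and between the lines Per3 was at −0.11, Bhlhe40 at −0.10, Nr1d2 at −0.14 and Timeless at −0.0744. After cyclic loess Cry2 was at 0.13, Csnk1d at 0.10 and Timeless at −0.0492 in alb-SREBP-1a∆P, and between the lines Hlf was at 0.0474, Per2 at 0.11, Rora at 0.0804, Csnk1d at 0.0900 and Csnk1e at 0.10. Without alb-SREBP-1a∆P replicate 4, Nr1d2 was at −0.0158 between the lines. Hlf and Rora had been called lower between the lines. The cause was not tested. Of 697 values of single genes under another setting 617 kept their direction and their side of the threshold, 30 no longer passed, 26 newly passed and 24 changed sign.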
